A study of Mus musculus with 9 samples.

Results

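Transcripts of 10 genes that hold back the cell cycle or respond to cell stress were followed in macrophages grown from mouse bone marrow. The set holds 5 genes of inhibitors of cyclin-dependent kinases (CDKs), namely Cdkn2b, Cdkn2c, Cdkn2d, Cdkn1a and Cdkn1b, the Polo-like kinase genes Plk2 and Plk3, Gadd45a, Gadd45b, and Mdm2. The genes were chosen by symbol, as a family proposed when the FPKM values and group differences of these same 9 libraries were already known, so their levels and differences are descriptions and carry no test. All 10 are among the 18049 genes of the deposited table, and all 10 are among the 11309 genes that reached 1 FPKM in at least 3 libraries. FPKM scales fragments to transcript length and sequencing depth, so levels of different genes can be compared with each other roughly. The counting tool behind the values was not given in the sources used here. The macrophages came from C57BL/6 mice aged 8 weeks and were kept in RPMI. They received 15d-PGJ2-PC at 1 µM (3 libraries), 15d-PGJ2 at 1 µM (3 libraries) or medium as the control (3 libraries), and were collected after 6 h. 15d-PGJ2 is 15-deoxy-Δ12,14-prostaglandin J2, an electrophilic prostaglandin, and the labels do not spell out PC. Nothing in the labels says whether the 3 libraries of a group came from separate cultures or animals, so the spread between them may be technical.

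CDKs joined to D-type, E-type and A-type cyclins drive the cell from the first gap phase into DNA synthesis, by phosphorylating the retinoblastoma protein and freeing E2F transcription factors. Proteins of the INK4 family, encoded by Cdkn2a to Cdkn2d, bind CDK4 and CDK6 and keep them from D-type cyclins, whereas the CIP/KIP proteins encoded by Cdkn1a and Cdkn1b bind a wider range of cyclin-CDK complexes. Gadd45 proteins and the Polo-like kinases Plk2 and Plk3 are induced by many stresses, and Mdm2 is the ubiquitin ligase that limits p53, itself an activator of Cdkn1a and Mdm2. Macrophages from bone marrow divide in response to the growth factor M-CSF, and CDK inhibitors are known brakes on that division.

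Steps between low FPKM values placed each library at about 5420000 to 5540000 reads. Summed FPKM ran from 469548 to 492997, and 10876 to 11026 genes per library stood at 1 FPKM or more. The 12 macrophage markers were all listed, none of them at 0 throughout a group, and summed to 6682 to 6875 FPKM in 15d-PGJ2-PC libraries, 5669 to 6045 in 15d-PGJ2 libraries and 7559 to 7767 in controls. Of 11 tested, 8 fell with 15d-PGJ2-PC and 11 with 15d-PGJ2, both against control, and 11 were higher with 15d-PGJ2-PC than with 15d-PGJ2. Summed stromal, epidermal, erythroid and neutrophil markers were highest in controls. The 10 stromal markers summed to 9.99 to 10.8 FPKM with 15d-PGJ2-PC, 11.2 to 14.2 with 15d-PGJ2 and 41.3 to 48.7 in controls, and the 9 listed epidermal markers to 2.98 to 4.98 FPKM with 15d-PGJ2-PC, 4.52 to 6.76 with 15d-PGJ2 and 24.6 to 29.3 in controls. The 7 listed erythroid markers summed to 0.40 to 1.60 FPKM with 15d-PGJ2-PC, 0.86 to 1.03 with 15d-PGJ2 and 24.5 to 32.3 in controls. The keratin genes Krt1, Krt5, Krt14 and Krt15 and the loricrin gene Lor were listed at 0 in every library of both compounds. Krt10 was at 0.51 to 1.37 FPKM with 15d-PGJ2-PC, 0.68 to 1.03 with 15d-PGJ2 and 5.76 to 6.63 in controls. Of 6 tested epidermal markers 5 fell with each compound against control, and Sfn rose with 15d-PGJ2 (limma adjusted p = 0.0318). Sfn stood at 2.24, 2.47 and 3.61 FPKM with 15d-PGJ2-PC, 3.82, 5.44 and 5.75 with 15d-PGJ2 and 3.33, 3.02 and 3.48 in controls. The 8 neutrophil markers summed to 26.8 to 31.6 FPKM with 15d-PGJ2-PC, 17.1 to 21.0 with 15d-PGJ2 and 34.6 to 37.2 in controls. Against control, 1 of 5 tested neutrophil markers rose and 1 fell with 15d-PGJ2-PC, and 1 rose and 4 fell with 15d-PGJ2. The riser was Mpo, at 1.99 FPKM with 15d-PGJ2-PC, 1.69 with 15d-PGJ2 and 0.09 in controls. The 4 listed lymphoid markers summed to at most 1.69 FPKM in any library. The part of all these marker types in the values of the 10 genes was not tested. In bulk RNA fewer cells of a type cannot be told apart from less RNA per cell.

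Cdkn2b, which encodes the INK4 inhibitor p15 (Entrez 12579, GRCm38 chromosome 4, 89306289 to 89311032), had the largest difference of the 10. It stood at 15.1, 14.7 and 15.4 FPKM in 15d-PGJ2-PC libraries, 28.9, 35.1 and 31.4 FPKM in 15d-PGJ2 libraries and 1.94, 1.82 and 2.35 FPKM in controls. No 2 groups overlapped: every 15d-PGJ2 library lay above every 15d-PGJ2-PC library, and those above every control. Group means were 15.1 ± 0.36 FPKM with 15d-PGJ2-PC, 31.8 ± 3.12 with 15d-PGJ2 and 2.04 ± 0.28 in controls (SD, n = 3 each), ratios of 7.39 for 15d-PGJ2-PC over control and 15.6 for 15d-PGJ2 over control. On the log2(FPKM + 1) scale, which understates differences of genes near 1 FPKM, the difference from control was 2.41 for 15d-PGJ2-PC and 3.43 for 15d-PGJ2 (SE 0.09 each). With a pseudocount of 0.1 in place of 1 it was 2.83 for 15d-PGJ2-PC and 3.90 for 15d-PGJ2. About 112 to 117 reads stood behind the value of a 15d-PGJ2-PC library, 219 to 264 behind that of a 15d-PGJ2 library and 14 to 18 behind that of a control, so counting alone would give the controls a coefficient of variation of 25.3%. Their own was 13.6%.

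The other INK4 genes of the set were low in all 9 libraries. Cdkn2c, which encodes p18 (Entrez 12580, chromosome 4, 109660876 to 109666756), stood at 2.60, 2.41 and 3.16 FPKM with 15d-PGJ2-PC, at 2.71, 3.37 and 2.42 with 15d-PGJ2 and at 2.76, 2.45 and 3.19 in controls. The 3 groups overlapped, and the 95% interval of the log2 difference from control ran from -0.32 to 0.26 for 15d-PGJ2-PC and from -0.28 to 0.30 for 15d-PGJ2. Cdkn2d, which encodes p19 of the same family (Entrez 12581, chromosome 9, 21288459 to 21291421), stood at 4.59, 2.88 and 3.03 FPKM with 15d-PGJ2-PC, at 3.59, 2.18 and 1.59 with 15d-PGJ2 and at 3.55, 5.58 and 2.87 in controls. These groups overlapped too, with wide intervals (-0.68 to 0.41 for 15d-PGJ2-PC and -1.08 to 0.01 for 15d-PGJ2). A Cdkn2d value rested on about 12 to 44 reads, and the spread within its groups was 27.1% to 41.9% of the mean.

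Cdkn1a, which encodes p21 (Entrez 12575, chromosome 17, 29090979 to 29100722), was the most abundant of the 10 in every group and was lowest with 15d-PGJ2. Its levels were 181, 175 and 175 FPKM in 15d-PGJ2-PC libraries, 142, 144 and 134 FPKM in 15d-PGJ2 libraries and 187, 188 and 187 FPKM in controls. The 3 groups did not overlap, though the gap between the highest 15d-PGJ2-PC library (181 FPKM) and the lowest control (187 FPKM) was small. Controls varied by 0.36% of their mean, less than the 2.62% that counting alone would give. For 15d-PGJ2-PC libraries the spread was 1.88%, beside 2.70% from counting. The log2 difference from control was -0.42 (SE 0.04) for 15d-PGJ2 and -0.08 (SE 0.04, 95% interval -0.16 to -0.01) for 15d-PGJ2-PC. That interval is not adjusted for the number of genes tested. The difference for 15d-PGJ2-PC did not pass the limma threshold, except with median centring.

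Cdkn1b, which encodes p27 (Entrez 12576, chromosome 6, 134920401 to 134925525), followed the same order with a wider span. It stood at 21.98, 18.6 and 20.7 FPKM with 15d-PGJ2-PC, at 15.8, 16.8 and 13.5 with 15d-PGJ2 and at 29.9, 29.0 and 28.9 in controls. Again no 2 groups overlapped, and the controls were the highest. The log2 differences from control were -0.50 for 15d-PGJ2-PC and -0.89 for 15d-PGJ2 (SE 0.08 each), so that mean Cdkn1b was at 69.8% of the control mean with 15d-PGJ2-PC and at 52.6% with 15d-PGJ2.

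**Figure D1:**
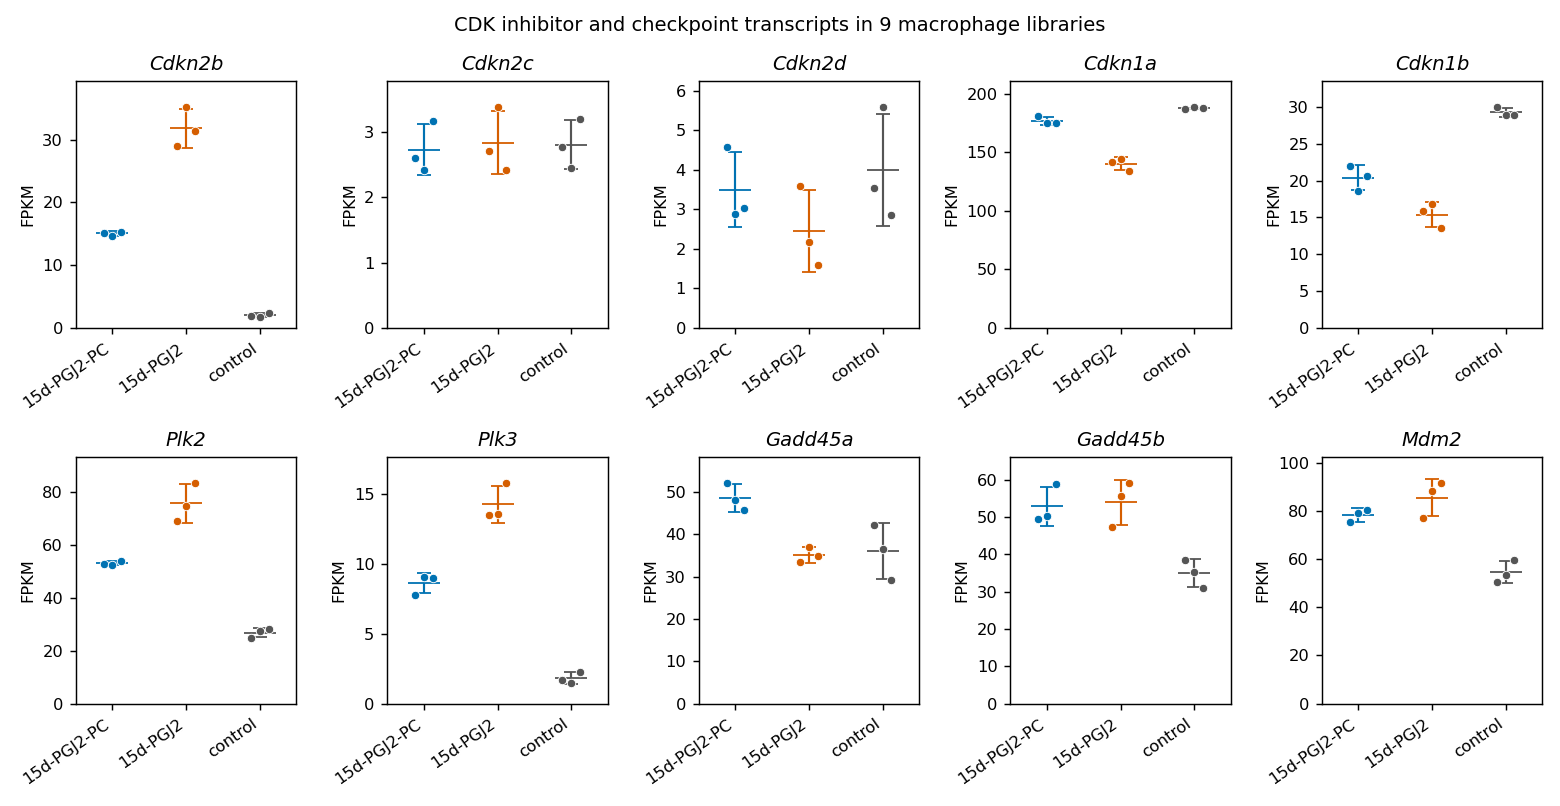
FPKM (vertical axis, linear, from 0) of each of the 10 genes in the 9 libraries by group: points are libraries, the wide line is the group mean and the error bar 1 SD (n = 3). Cdkn2b, Plk2 and Plk3 are highest with 15d-PGJ2 and lowest in controls, Cdkn1a and Cdkn1b run the other way, and Gadd45a is highest with 15d-PGJ2-PC.

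Cdkn2b took a larger share of the transcripts of the 5 CDK inhibitor genes with either compound than in controls. The 5 genes together summed to 213 to 225 FPKM with 15d-PGJ2-PC, 183 to 202 FPKM with 15d-PGJ2 and 225 to 227 FPKM in controls. Of that sum Cdkn2b took 6.89% ± 0.17 with 15d-PGJ2-PC, 16.5% ± 1.33 with 15d-PGJ2 and 0.90% ± 0.13 in controls (SD, n = 3 each), and Cdkn1a took 80.9% ± 0.88 with 15d-PGJ2-PC, 72.8% ± 1.08 with 15d-PGJ2 and 83.1% ± 0.26 in controls. Summed transcripts of Cdkn2b, Cdkn2c and Cdkn2d were at 19.95 to 22.3 FPKM with 15d-PGJ2-PC, 35.2 to 40.7 with 15d-PGJ2 and 8.25 to 9.85 in controls. The INK4 gene Cdkn2a, outside the set, is not in these sums. There were 11.4 to 11.9 Cdkn1a transcripts for each Cdkn2b transcript with 15d-PGJ2-PC, 4.11 to 4.91 with 15d-PGJ2 and 79.8 to 103 in controls, on the per-length scale.

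**Figure D2:**
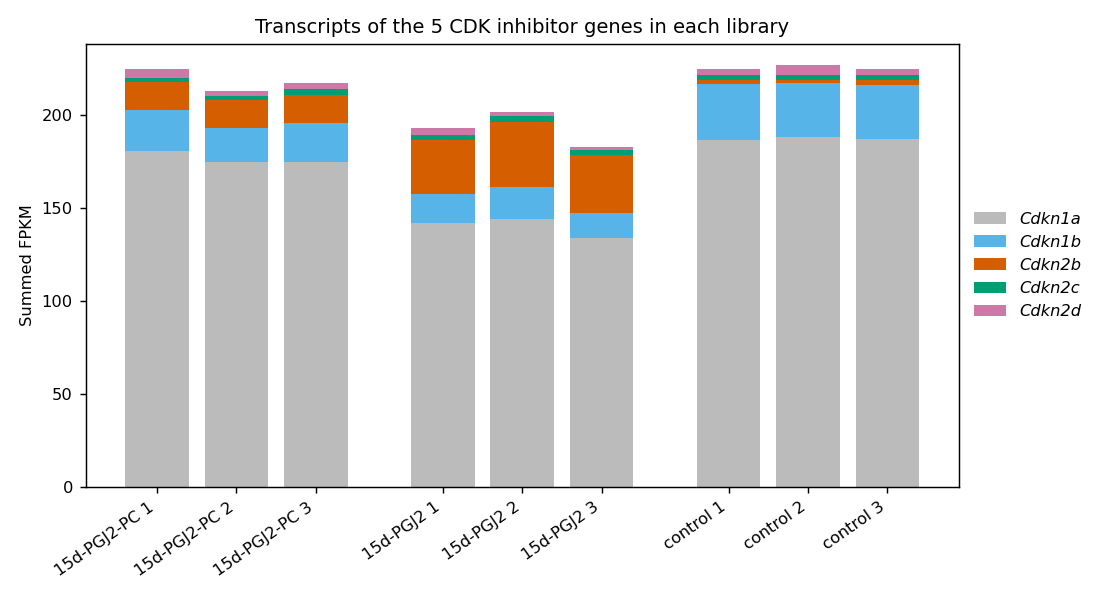
Summed FPKM (vertical axis, from 0) of the 5 CDK inhibitor genes in each library, stacked by gene. The Cdkn2b layer is 14.7 to 15.4 FPKM deep with 15d-PGJ2-PC, 28.9 to 35.1 with 15d-PGJ2 and 1.82 to 2.35 in controls, while the Cdkn1a layer is shallowest with 15d-PGJ2.

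Both Polo-like kinase genes were higher with either compound than in controls. Plk2 (Entrez 20620, chromosome 13, 110395044 to 110400844), whose product acts in centriole duplication and in stress signalling, stood at 52.8, 52.3 and 53.9 FPKM with 15d-PGJ2-PC, at 68.8, 74.7 and 83.2 with 15d-PGJ2 and at 24.8, 27.6 and 28.1 in controls. The libraries of the 3 groups did not overlap. The log2 differences from control were 0.96 for 15d-PGJ2-PC and 1.46 for 15d-PGJ2 (SE 0.07 each). Plk3, a stress-responsive kinase gene (Entrez 12795, chromosome 4, 117128655 to 117133963), was at 7.81, 9.07 and 9.02 FPKM with 15d-PGJ2-PC, at 13.5, 13.5 and 15.8 with 15d-PGJ2 and at 1.68, 1.47 and 2.29 in controls. Here too the groups were apart, with a ratio of means over control of 4.76 and a log2 difference of 1.78 for 15d-PGJ2-PC, and of 7.87 and 2.45 for 15d-PGJ2 (SE 0.12 for both log2 differences). Plk2 stayed the more abundant kinase, at 5.77 to 6.76 times Plk3 with 15d-PGJ2-PC, 5.10 to 5.52 times with 15d-PGJ2 and 12.3 to 18.8 times in controls. Plk3 overlaps the neighbouring gene Tctex1d4, which was at 0.56 to 2.44 FPKM, and reads in the stretch they share cannot be told apart.

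The 4 sequences that follow show the start regions of the 3 genes with the largest differences from control, Cdkn2b, Plk3 and Plk2, and of the most abundant gene, Cdkn1a, each running from 250 bases before to 50 bases after an annotated start, 5′ to 3′ on the gene's strand (RefSeq, GRCm38.p6). They lie at chr4:89310983-89311282 (Cdkn2b, minus strand), chr13:110394794-110395093 (Plk2, plus strand), chr4:117133914-117134213 (Plk3, minus strand) and chr17:29090729-29091028 (Cdkn1a, plus strand, the upstream of its 2 listed starts). Capitals mark the matches described after them.
Cdkn2b: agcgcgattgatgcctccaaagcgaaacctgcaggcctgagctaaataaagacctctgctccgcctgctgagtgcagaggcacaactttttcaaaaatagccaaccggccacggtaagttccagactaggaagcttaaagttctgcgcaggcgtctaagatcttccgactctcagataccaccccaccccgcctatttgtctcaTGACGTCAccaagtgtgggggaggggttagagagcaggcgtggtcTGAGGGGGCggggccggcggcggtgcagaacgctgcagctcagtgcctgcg
Plk2: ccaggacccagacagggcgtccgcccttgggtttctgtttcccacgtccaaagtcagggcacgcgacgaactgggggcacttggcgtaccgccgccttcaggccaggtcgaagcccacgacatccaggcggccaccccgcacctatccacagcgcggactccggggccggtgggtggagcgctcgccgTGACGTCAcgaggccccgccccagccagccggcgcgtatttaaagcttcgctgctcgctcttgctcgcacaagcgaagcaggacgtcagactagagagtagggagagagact
Plk3: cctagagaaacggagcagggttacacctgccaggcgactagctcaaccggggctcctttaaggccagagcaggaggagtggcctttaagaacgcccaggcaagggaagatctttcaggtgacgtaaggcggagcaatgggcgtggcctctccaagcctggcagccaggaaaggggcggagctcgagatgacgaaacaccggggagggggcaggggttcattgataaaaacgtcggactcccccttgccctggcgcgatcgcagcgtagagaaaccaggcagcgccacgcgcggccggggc
Cdkn1a: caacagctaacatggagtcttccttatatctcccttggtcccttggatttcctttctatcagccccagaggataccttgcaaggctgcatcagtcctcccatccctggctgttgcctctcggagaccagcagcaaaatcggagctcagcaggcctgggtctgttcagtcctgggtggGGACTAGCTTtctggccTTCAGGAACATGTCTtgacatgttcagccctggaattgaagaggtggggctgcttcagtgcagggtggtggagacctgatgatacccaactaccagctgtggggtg

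Sequence tables held 12 such windows for the 10 genes. Of the motifs searched on both strands, the cAMP response element TGACGTCA, which CREB and ATF factors bind, was in the windows of Cdkn2b and Plk2, 46 bases before the start in Cdkn2b and 62 in Plk2, and in 1.79% of all 32851 windows. The core of the antioxidant response element, the Nrf2 site, searched as TGACNNNGC or TGAGNNNGC, was in windows of 6 of the 10 genes and in 27.8% of all windows. In Cdkn2b that match spans the start itself. The p53 decamer was in windows of Cdkn1a, Cdkn2d, Gadd45a and Mdm2 and in 8.36% of all windows. Cdkn1a has it at 73 and 51 bases before this start, and the second overlaps the only match of the set to the heat shock element core, searched as GAANNTTC or TTCNNGAA (15.1% of all windows). The Plk3 window held none of these 4. All 10 genes had a GC box, GGGCGG, in a window, where 35.7% of all windows held one, and this motif is not capitalised. The upstream window of Cdkn1a and 1 of the 2 windows of Cdkn2c held none. Genes with 2 windows had 2 chances of a match, so counts of genes are not like shares of windows. GC content ran from 44.0% to 73.3% in the 12 windows, beside a median of 52.7% over all windows. The remaining searches were for the CCAAT box (6 genes, 37.4% of windows), the E-box CACGTG (Cdkn2c and Gadd45b, 7.15%), the TATA box TATAAA (Gadd45b, 13.6%) and the NF-κB site (Cdkn2d, 8.46%). AP-1 sites (TGACTCA or TGAGTCA, 5.20% of windows), CHOP-ATF elements (TGATGAAA, TGATGCAA, TGATGGAA or TGATGTAA, 3.97%) and the CArG box (1.63%) had no match. A match is a description of the letters in the window, not a site shown to be used.

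The Gadd45 genes, whose small proteins bind MAP3K4 and p21, differed from each other. Gadd45a (Entrez 13197, chromosome 6, 67035096 to 67037407) stood at 52.0, 48.0 and 45.6 FPKM with 15d-PGJ2-PC, at 33.5, 37.1 and 34.8 with 15d-PGJ2 and at 42.3, 36.5 and 29.1 in controls. It was the only one of the 10 whose 15d-PGJ2-PC libraries all lay above those of both other groups, while 15d-PGJ2 and control libraries overlapped. The log2 difference from control was 0.44 (SE 0.11) for 15d-PGJ2-PC and -0.02 (95% interval -0.26 to 0.23) for 15d-PGJ2. Controls varied most, by 18.3% of their mean, where counting alone gives 6.43%. The noncoding gene E230016M11Rik overlaps Gadd45a and was at 4.57 to 7.70 FPKM, so reads could be shared.

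Gadd45b (Entrez 17873, chromosome 10, 80930091 to 80932204) was higher with both compounds. Its levels were 49.6, 50.2 and 59.0 FPKM with 15d-PGJ2-PC, 47.3, 55.6 and 59.1 FPKM with 15d-PGJ2 and 38.5, 35.4 and 31.0 FPKM in controls. Libraries of both compounds overlapped each other and lay above all controls, with log2 differences from control of 0.59 for 15d-PGJ2-PC and 0.61 for 15d-PGJ2 (SE 0.10 each).

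Mdm2 (Entrez 17246, chromosome 10, 117688875 to 117710758) showed the same arrangement. It was at 75.2, 79.2 and 80.4 FPKM with 15d-PGJ2-PC, at 76.9, 88.1 and 91.5 with 15d-PGJ2 and at 50.6, 53.4 and 59.5 in controls. Both compounds lay above every control and overlapped each other, with log2 differences from control of 0.52 for 15d-PGJ2-PC and 0.64 for 15d-PGJ2 (SE 0.07 each). About 868 to 1550 reads stood behind each Mdm2 value.

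Set against each other at 1 µM and 6 h, the compounds differed for some of the 10 genes. Cdkn2b was lower with 15d-PGJ2-PC than with 15d-PGJ2 by 1.03 on the log2 scale (95% interval of the difference -1.22 to -0.83), at 47.3% of the 15d-PGJ2 mean. Plk3 and Plk2 were lower as well, with differences of -0.66 (-0.92 to -0.40) and -0.50 (-0.65 to -0.34). Cdkn1a, Cdkn1b and Gadd45a were higher with 15d-PGJ2-PC, by 0.33 (0.26 to 0.41), 0.39 (0.21 to 0.57) and 0.45 (0.21 to 0.70), the last no longer past the limma threshold without 15d-PGJ2-PC replicate 1. For Gadd45b the difference was -0.03 with an interval of -0.25 to 0.20, and for Mdm2 it was -0.12 with -0.28 to 0.04. The intervals of Cdkn2c (-0.33 to 0.25) and Cdkn2d (-0.14 to 0.95) also held 0. Such intervals bound a difference and do not show that the compounds act alike.

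**Figure D3:**
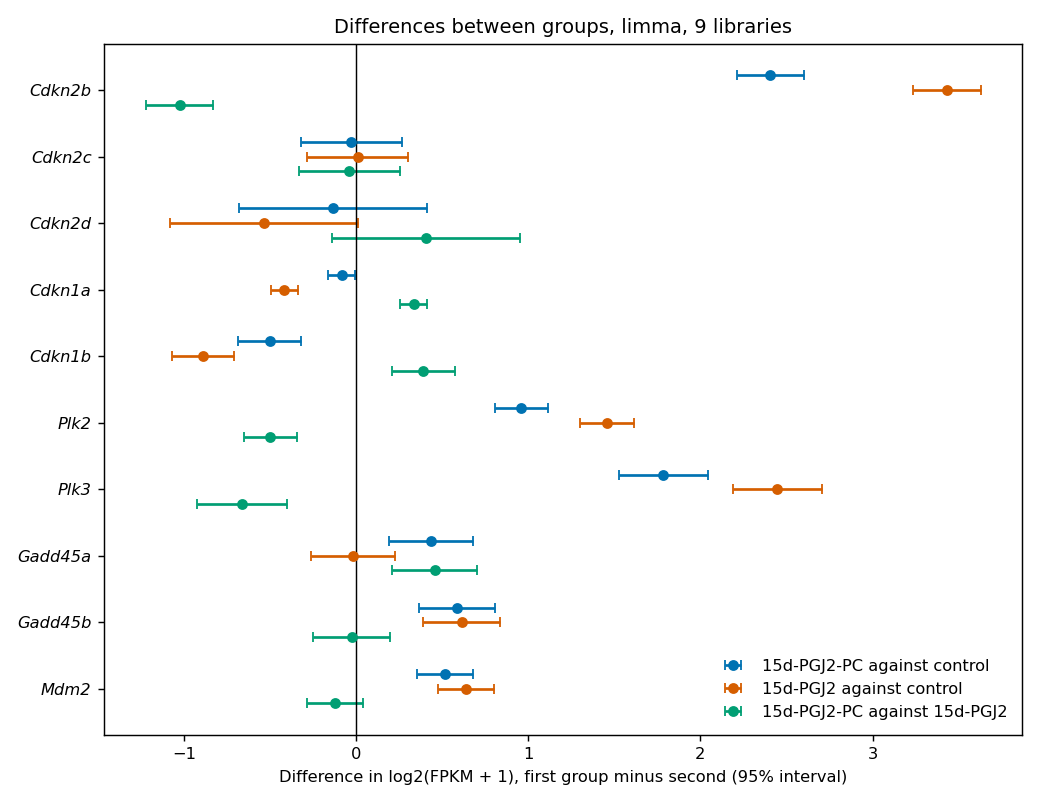
Difference in log2(FPKM + 1) between groups (horizontal axis, first group minus second) for each gene, with limma's 95% interval, for each compound minus control and for 15d-PGJ2-PC minus 15d-PGJ2. Cdkn2b spans the widest range, from -1.03 between the compounds to 3.43 for 15d-PGJ2 over control, and the intervals of Cdkn2c hold 0 in all 3 comparisons.

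Limma, fitted to all 11309 genes, gives the background against which these counts stand (adjusted p under 0.05). For 15d-PGJ2-PC against control, 6 of the 10 genes passed upwards (13.8% of all tested genes did), 1 passed downwards (14.1%) and 3 did not pass. For 15d-PGJ2 against control, 5 passed upwards (22.2%), 2 downwards (25.0%) and 3 did not pass. Between 15d-PGJ2-PC and 15d-PGJ2, 3 passed upwards (12.3%), 3 downwards (8.30%) and 4 did not pass. The libraries of both groups did not overlap for 8 of the 10 genes with 15d-PGJ2-PC against control (41.8% of all tested genes), for 7 with 15d-PGJ2 against control (55.1%) and for 6 between the compounds (37.3%). For Cdkn2b, Plk2 and Plk3 the 3 groups were fully apart with 15d-PGJ2 highest and 15d-PGJ2-PC between, as for 8.35% of all tested genes, and for Cdkn1a and Cdkn1b with 15d-PGJ2 lowest, as for 11.0%. Median log2 differences over the 10 genes were 0.48, 0.31 and -0.03 for the 3 comparisons, beside -0.004, -0.02 and 0.02 over all tested genes. The choice of these genes drew on the same values, so nothing is read from the counts, and the 2 comparisons with control share their control libraries.

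The order of levels changed mainly through Cdkn2b, Plk2 and Plk3. In controls Cdkn1a and Mdm2 led, Gadd45a and Gadd45b followed with overlapping ranges, then Cdkn1b and Plk2, and Cdkn2b and Plk3 came last with ranges that overlapped. With 15d-PGJ2, Plk2 came next after Mdm2 with an overlapping range, Cdkn2b lay above Cdkn1b and overlapped Gadd45a, and Cdkn2c and Cdkn2d were last. With 15d-PGJ2-PC, Plk2, Gadd45b and Gadd45a followed Mdm2 with ranges that overlapped from one to the next, and Cdkn2b lay between Cdkn1b and Plk3 with no overlap.

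From here rises and falls are limma calls, with sizes as differences in log2(FPKM + 1). The 7 lists that follow were also chosen with earlier results of these data known, so their counts are descriptions. Of 8 other genes of the same families or named after them, as Cdkn3 and Gadd45gip1 are, 7 were tested. With 15d-PGJ2-PC against control 1 of the 7 rose (13.8% of all tested genes did), 1 fell (14.1%) and 5 did not pass. There 2 rose without 15d-PGJ2-PC replicate 1. With 15d-PGJ2 against control 3 rose (22.2%) and 4 did not pass. Between the compounds 1 was lower with 15d-PGJ2-PC (8.30% of all tested genes), and 2 without 15d-PGJ2-PC replicate 1 or 3. Gadd45g, the remaining gene of the Gadd45 family, rose with 15d-PGJ2-PC (36.6, 41.1 and 43.8 FPKM) and with 15d-PGJ2 (57.3, 59.2 and 56.1 FPKM), against 10.6, 13.9 and 12.2 FPKM in controls. Its log2 differences from control were 1.65 for 15d-PGJ2-PC (SE 0.09, adjusted p = 5.71e-07) and 2.15 for 15d-PGJ2 (SE 0.09, adjusted p = 1.85e-08), and it was lower with 15d-PGJ2-PC than with 15d-PGJ2 (log2 difference -0.50, adjusted p = 0.00285). Cdkn2a, the INK4 gene next to Cdkn2b, stood at 1.98, 1.19 and 3.68 FPKM with 15d-PGJ2-PC, at 5.23, 4.48 and 3.23 with 15d-PGJ2 and at 2.36, 1.70 and 1.05 in controls, and rose with 15d-PGJ2 (log2 difference 0.99, SE 0.27, adjusted p = 0.0125). Between the compounds its log2 difference was -0.75 (adjusted p = 0.0824, but 0.0163 without 15d-PGJ2-PC replicate 3). Transcripts of Cdkn2a and Cdkn2b share no run of 36 bases. Cdkn1c, the last CIP/KIP gene, was at 2.27 ± 0.57 FPKM with 15d-PGJ2-PC, 3.36 ± 0.23 with 15d-PGJ2 and 3.32 ± 0.34 in controls (SD, n = 3 each). It passed for 15d-PGJ2-PC against control at adjusted p = 0.0486, the 1 fall of the list, but not without 8 of the 9 libraries in turn (up to 0.145). Nor did Cdkn1c pass there with a pseudocount of 0.1 (0.0517), no filter (0.0957), quantile normalization (0.0557) or the 6 libraries of the comparison (0.0832). Gadd45gip1, whose product binds Gadd45 proteins, was at 24.8 FPKM with 15d-PGJ2-PC, 27.0 with 15d-PGJ2 and 23.7 in controls, and rose with 15d-PGJ2 (adjusted p = 0.0262), though not without 15d-PGJ2 replicate 2 or 3 or control replicate 2 (up to 0.104). Plk1, the mitotic kinase gene, was at 1.47 FPKM with 15d-PGJ2-PC, 1.94 with 15d-PGJ2 and 1.79 in controls and passed in no comparison.

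Genes of the CDKs, cyclins, retinoblastoma and E2F proteins were then counted, 17 tested of 19. With 15d-PGJ2-PC against control 2 rose (13.8% of all tested genes did), 5 fell (14.1%) and 10 did not pass (median log2 difference -0.19). Only 1 rose without 15d-PGJ2-PC replicate 3 or control replicate 1. With 15d-PGJ2 against control 3 rose (22.2%), 7 fell (25.0%) and 7 did not pass (median -0.33). In limma 0 passed between the compounds, with 2 higher and 0 lower at an unadjusted p under 0.05. The cyclin D1 gene Ccnd1 fell to 3.67, 3.26 and 2.80 FPKM with 15d-PGJ2-PC and to 2.22, 2.72 and 2.27 FPKM with 15d-PGJ2, against 6.82, 8.60 and 8.73 FPKM in controls (log2 difference -1.09 with adjusted p = 7.08e-05 for 15d-PGJ2-PC and -1.41 with adjusted p = 3.78e-06 for 15d-PGJ2, SE 0.12 each). The cyclin D3 gene Ccnd3 was at 22.5 ± 1.66 FPKM with 15d-PGJ2-PC, 21.1 ± 0.96 with 15d-PGJ2 and 36.9 ± 4.10 in controls (SD, n = 3 each), and fell by 0.69 with 15d-PGJ2-PC and by 0.78 with 15d-PGJ2. E2f3, at 8.69 FPKM with 15d-PGJ2-PC, 9.36 with 15d-PGJ2 and 5.58 in controls, rose by 0.56 with 15d-PGJ2-PC and by 0.65 with 15d-PGJ2. Among the direct targets of the inhibitors, Cdk4 was at 51.3 FPKM with 15d-PGJ2-PC, 51.4 with 15d-PGJ2 and 48.4 in controls (adjusted p = 0.421 with 15d-PGJ2-PC and 0.337 with 15d-PGJ2). Cdk6 stood at 5.50 FPKM with 15d-PGJ2-PC, 6.47 with 15d-PGJ2 and 4.86 in controls and rose with 15d-PGJ2 (adjusted p = 0.0152), though not without control replicate 2 (0.0613). Cdk2 was at 7.05 FPKM with 15d-PGJ2-PC, 6.25 with 15d-PGJ2 and 8.11 in controls and fell by 0.33 with 15d-PGJ2 (adjusted p = 0.00463). The retinoblastoma gene Rb1, at 11.3 FPKM with 15d-PGJ2-PC, 11.1 with 15d-PGJ2 and 11.0 in controls, passed in no comparison. Nor did the cyclin E1 gene Ccne1, at 1.52 FPKM with 15d-PGJ2-PC, 1.52 with 15d-PGJ2 and 1.87 in controls. Summed stromal and summed epidermal marker transcripts were also highest in controls, as given above, and their part in the cyclin D values was not tested.

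Apart from genes of the set, such as Cdkn1a and Mdm2, 29 genes listed as p53 targets were tested. With 15d-PGJ2-PC against control 6 were called higher (13.8% of all tested genes), 8 lower (14.1%) and 15 neither (median log2 difference -0.11). With 15d-PGJ2 against control 7 were called higher (22.2%), 15 lower (25.0%) and 7 neither (median -0.15). Between the compounds 9 were higher (12.3%) and 4 lower (8.30%) with 15d-PGJ2-PC, and 16 were not called (median 0.12). Gdf15, a stress-induced cytokine gene, was at 268 ± 2.89 FPKM with 15d-PGJ2-PC, 344 ± 25.1 with 15d-PGJ2 and 117 ± 10.4 in controls (SD, n = 3 each). It rose by 1.19 with 15d-PGJ2-PC and by 1.55 with 15d-PGJ2 (SE 0.07 each, adjusted p = 5.96e-07 for 15d-PGJ2-PC and 1.91e-08 for 15d-PGJ2). Trp53inp1, a p53 cofactor gene, was at 23.5 FPKM with 15d-PGJ2-PC, 29.1 with 15d-PGJ2 and 15.6 in controls and rose by 0.56 with 15d-PGJ2-PC and by 0.86 with 15d-PGJ2. Sesn1, which encodes a sestrin that restrains mTORC1, fell to 36.4 ± 1.00 FPKM with 15d-PGJ2-PC and 22.9 ± 2.38 with 15d-PGJ2, against 65.1 ± 1.93 in controls, and was higher with 15d-PGJ2-PC than with 15d-PGJ2 by 0.65 (adjusted p = 6.56e-05). The DNA damage sensor gene Ddb2, at 26.8 FPKM with 15d-PGJ2-PC, 17.8 with 15d-PGJ2 and 31.9 in controls, fell by 0.81 with 15d-PGJ2 and was higher by 0.57 with 15d-PGJ2-PC than with 15d-PGJ2. Its fall of 0.24 with 15d-PGJ2-PC against control (adjusted p = 0.0311) was lost without 15d-PGJ2-PC replicate 2 or 3 (0.112 and 0.0549) and without control replicate 1 or 3 (0.0597 and 0.109), with no filter (0.0519) and with no trend (0.053). The phospholipid transfer protein gene Pltp was at 639 FPKM with 15d-PGJ2-PC, 541 with 15d-PGJ2 and 725 in controls. It fell by 0.18 with 15d-PGJ2-PC and by 0.42 with 15d-PGJ2 and was higher by 0.24 with 15d-PGJ2-PC than with 15d-PGJ2.

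The p53 gene itself, Trp53, stood at 40.1, 42.2 and 41.5 FPKM with 15d-PGJ2-PC, at 43.3, 45.0 and 45.4 with 15d-PGJ2 and at 41.2, 44.1 and 39.2 in controls. It passed in no comparison (adjusted p = 0.932 for 15d-PGJ2-PC and 0.127 for 15d-PGJ2 against control). For 15d-PGJ2 it did pass with quantile normalization (0.015) and without control replicate 2 (0.045). Mdm4, the partner of Mdm2, was at 16.8 FPKM with 15d-PGJ2-PC, 14.9 with 15d-PGJ2 and 15.6 in controls and passed in no comparison. Of 10 tested regulators of p53 and Mdm2, 3 rose (13.8% of all tested genes did) and 1 fell (14.1%) with 15d-PGJ2-PC against control. Likewise 3 rose (22.2%) and 1 fell (25.0%) with 15d-PGJ2 against control. The ubiquitin ligase gene Rfwd2, at 24.2 FPKM with 15d-PGJ2-PC, 27.3 with 15d-PGJ2 and 20.4 in controls, rose by 0.23 with 15d-PGJ2-PC and by 0.40 with 15d-PGJ2. Trp53bp1, whose product marks DNA breaks, was at 8.03 FPKM with 15d-PGJ2-PC, 9.03 with 15d-PGJ2 and 6.17 in controls and rose by 0.33 with 15d-PGJ2-PC and by 0.48 with 15d-PGJ2. The acetyltransferase gene Ep300, at 27.3 FPKM with 15d-PGJ2-PC, 25.1 with 15d-PGJ2 and 32.1 in controls, fell by 0.23 with 15d-PGJ2-PC and by 0.34 with 15d-PGJ2. Of the 10, 1 passed between the compounds, Rfwd2 (log2 difference -0.17, adjusted p = 0.0463), and leaving out any of 8 libraries, all but control replicate 1, ended that call (0.0530 to 0.150).

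Of the DNA damage checkpoint genes 17 were tested with limma. With 15d-PGJ2-PC against control 1 fell (14.1% of all tested genes did), with 15d-PGJ2 against control 5 fell (25.0% of all tested genes did), and 0 passed between the compounds. No gene of the list rose against control, where an unadjusted p under 0.05 gave 1 higher with 15d-PGJ2-PC and 1 with 15d-PGJ2, and between the compounds it gave 3 higher and 0 lower. With the adjusted p, 1 gene rose with 15d-PGJ2-PC when 15d-PGJ2-PC replicate 1 or control replicate 3 was left out, 1 rose with 15d-PGJ2 without 15d-PGJ2 replicate 3 or with no intensity trend, and 1 was higher between the compounds without 15d-PGJ2 replicate 1 or 2 or with a pseudocount of 0.1. With no intensity trend 2 were higher between the compounds. The phosphatase gene Cdc25b was at 2.12 FPKM with 15d-PGJ2-PC, 1.28 with 15d-PGJ2 and 2.66 in controls and fell by 0.69 with 15d-PGJ2 (adjusted p = 0.00298). Rad9a, a subunit gene of the checkpoint clamp, was at 34.99 FPKM with 15d-PGJ2-PC, 35.7 with 15d-PGJ2 and 40.7 in controls, and fell with 15d-PGJ2-PC (adjusted p = 0.0146) and with 15d-PGJ2 (adjusted p = 0.0184, but 0.0665 without 15d-PGJ2 replicate 3, 0.0672 without control replicate 3 and 0.115 with quantile normalization). Rad1, the gene of another subunit, was at 13.4 FPKM with 15d-PGJ2-PC, 11.6 with 15d-PGJ2 and 14.2 in controls, and fell with 15d-PGJ2 (adjusted p = 0.0268), though not without 15d-PGJ2 replicate 1 or 3 or control replicate 1 or 2 (up to 0.0936). Without 1 library the fallen genes for 15d-PGJ2 numbered as few as 1 (without 15d-PGJ2 replicate 3) or 2 (without control replicate 2 or 3), and numbered 3 without 15d-PGJ2 replicate 1 or 2 or control replicate 1. They also numbered 3 with only the 6 libraries of the comparison and with the filter of 5 FPKM. That fall of Rad9a for 15d-PGJ2-PC was lost without 15d-PGJ2-PC replicate 3 or control replicate 3.

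A list of 22 known regulators of the inhibitor genes, or of their proteins as for Skp2 and Cks1b, was tested. With 15d-PGJ2-PC against control 4 rose (13.8% of all tested genes did) and 4 fell (14.1%). With 15d-PGJ2 against control 6 rose (22.2%) and 6 fell (25.0%). Myc, a repressor of Cdkn2b and Cdkn1a, stood at 8.23 ± 1.2 FPKM with 15d-PGJ2-PC, 12.1 ± 1.43 with 15d-PGJ2 and 5.65 ± 0.64 in controls (SD, n = 3 each). It rose by 0.47 with 15d-PGJ2-PC (adjusted p = 0.0133, but 0.0509 without 15d-PGJ2-PC replicate 1 and 0.0508 without replicate 3) and by 0.97 with 15d-PGJ2 (adjusted p = 5.51e-05). Ezh2, the Polycomb methyltransferase that silences the Cdkn2a and Cdkn2b locus in other cells, was at 6.83 FPKM with 15d-PGJ2-PC, 8.89 with 15d-PGJ2 and 4.31 in controls and rose by 0.56 with 15d-PGJ2-PC and by 0.90 with 15d-PGJ2. The transcription factor gene Ets2, at 26.7 FPKM with 15d-PGJ2-PC, 41.5 with 15d-PGJ2 and 24.1 in controls, rose with 15d-PGJ2 (log2 difference 0.76) and was lower with 15d-PGJ2-PC than with 15d-PGJ2 by 0.62 (adjusted p = 0.000249). The TGF-β receptor gene Tgfbr2, whose pathway induces Cdkn2b, was at 29.9 FPKM with 15d-PGJ2-PC, 24.6 with 15d-PGJ2 and 39.1 in controls and fell by 0.38 with 15d-PGJ2-PC and by 0.65 with 15d-PGJ2. Max, the partner of Myc, was at 39.1 FPKM with 15d-PGJ2-PC, 32.3 with 15d-PGJ2 and 38.04 in controls and fell by 0.23 with 15d-PGJ2. Between the compounds 3 of the 22 were higher (12.3% of all tested genes) and 4 lower (8.30%) with 15d-PGJ2-PC. The count was 2 lower without 15d-PGJ2-PC replicate 1.

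Gadd45 proteins signal through the p38 and JNK pathways, of which 16 genes were counted. With 15d-PGJ2-PC against control 3 rose (13.8% of all tested genes did) and 3 fell (14.1%). With 15d-PGJ2 against control 5 rose (22.2%) and 6 fell (25.0%). Between 15d-PGJ2-PC and 15d-PGJ2, 2 were higher (12.3%) and 2 lower (8.30%), with 1 lower without 15d-PGJ2-PC replicate 2 or 15d-PGJ2 replicate 3. The p38 kinase kinase gene Map2k3 was at 34.98 ± 1.61 FPKM with 15d-PGJ2-PC, 45.2 ± 2.96 with 15d-PGJ2 and 17.9 ± 0.98 in controls (SD, n = 3 each). It rose by 0.93 with 15d-PGJ2-PC and by 1.29 with 15d-PGJ2 (SE 0.06 each, adjusted p = 2.26e-06 for 15d-PGJ2-PC and 4.90e-08 for 15d-PGJ2). Mapkapk2, a kinase downstream of p38, was at 85.8 FPKM with 15d-PGJ2-PC, 75.6 with 15d-PGJ2 and 103 in controls and fell by 0.25 with 15d-PGJ2-PC and by 0.44 with 15d-PGJ2. Map3k1, a kinase gene upstream of JNK, was at 15.7 FPKM with 15d-PGJ2-PC, 12.03 with 15d-PGJ2 and 17.5 in controls and fell by 0.51 with 15d-PGJ2. Over all 7 lists, 118 genes tested, 19 rose and 23 fell with 15d-PGJ2-PC, 27 rose and 40 fell with 15d-PGJ2, and 14 were higher and 12 lower between 15d-PGJ2-PC and 15d-PGJ2, beside the shares of all tested genes given above.

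**Figure D4:**
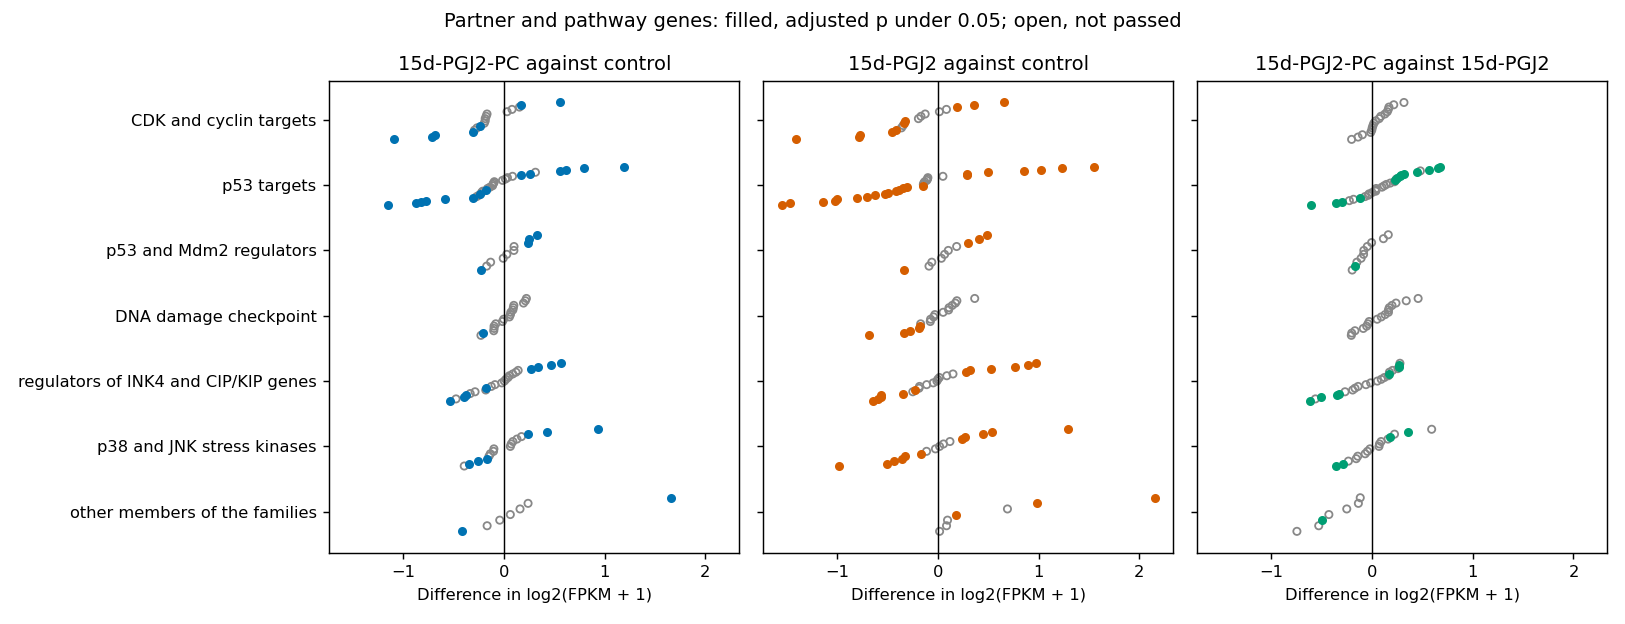
Difference in log2(FPKM + 1) (horizontal axis) of every tested gene in the 7 lists of partners and pathway genes, for each compound minus control (15d-PGJ2-PC left, 15d-PGJ2 middle) and for 15d-PGJ2-PC minus 15d-PGJ2 (right). Filled points passed limma at adjusted p under 0.05 and open points did not; Gadd45g is the point farthest to the right for both compounds, at 1.65 with 15d-PGJ2-PC and 2.15 with 15d-PGJ2.

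The genes whose pattern over the 9 libraries was most like that of Cdkn2b, by Pearson correlation of log2(FPKM + 1) among 10634 protein-coding genes tested outside the set, were Ubxn4 (r = 0.999), Uhrf1bp1l (0.999), Hmox1 (0.998), Hspa1a (0.998) and Prdx1 (0.998). Since the 9 libraries fall into 3 groups, this measure mostly compares group means. Ubxn4, a gene of protein degradation at the endoplasmic reticulum, had means of 54.1 FPKM with 15d-PGJ2-PC, 73.5 with 15d-PGJ2 and 25.0 in controls. Uhrf1bp1l had means of 13.4 FPKM with 15d-PGJ2-PC, 16.3 with 15d-PGJ2 and 8.23 in controls. The heme oxygenase gene Hmox1 had means of 2781 FPKM with 15d-PGJ2-PC, 6540.1 with 15d-PGJ2 and 332 in controls. For the peroxiredoxin gene Prdx1 the means were 1835 FPKM with 15d-PGJ2-PC, 2391 with 15d-PGJ2 and 962 in controls. The chaperone gene Hspa1a had means of 129.8 FPKM with 15d-PGJ2-PC, 627 with 15d-PGJ2 and 4.17 in controls, with reads that may be shared with its copy Hspa1b.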

How the data were processed

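RNA of 9 macrophage libraries in 3 groups was extracted with Trizol and made into Illumina TruSeq RNA libraries, per the labels' protocols. The authors deposited 1 table of FPKM values, per the file headers. The submitters' processing notes name mm10 and BWA; its version, the counting tool and strand use were not given in the sources used here. All 9 sample columns were used as deposited. Coordinates, 1-based, are RefSeq's on GRCm38.p6, the assembly that mm10 names.

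Read numbers are approximate, from the depth at which low FPKM values times transcript length came closest to whole numbers (71.6% to 74.4% of such values lay within 0.1 of one). Coefficients of variation from counting cover counting error only, whereas the intervals of differences are limma's, from the spread between libraries.

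Values were moved to log2(FPKM + 1). Those genes that reached 1 FPKM in 3 or more libraries were tested with limma 3.58.1 in R 4.3.3 (moderated test with intensity trend, 2-sided, all 9 libraries, no covariate), and p-values were adjusted over all tested genes of a comparison by the Benjamini-Hochberg method with a threshold of 0.05. The script was tested on simulated data. The 10 genes and the lists were chosen with earlier results of these data known. Beside the 10, named genes are 13 fixed partners, up to 3 genes per list with the smallest p for 15d-PGJ2 against control and for 15d-PGJ2-PC against 15d-PGJ2, and the 5 genes most like Cdkn2b. Alternatives were a pseudocount of 0.1, no filter or one of 5 FPKM, quantile normalization, median centring, no trend, the 6 libraries of a comparison, a replicate block, and each library left out.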

Additional observations from a re-analysis of the deposited data

How the results depend on the processing

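Counts of called genes over the whole table, the 10 genes and the 7 lists together stayed within 1.5 times their reported values under all 17 alternatives. For 15d-PGJ2 against control, 7 of the 10 genes passed (7 to 8 with 1 library left out), for 15d-PGJ2-PC against control 7 (7 to 8 with median centring) and between the compounds 6 (5 to 6). Of the 20 calls behind these counts, 19 held in every alternative and none changed sign. That of Gadd45a between the compounds was lost without 15d-PGJ2-PC replicate 1. Cdkn2d passed for 15d-PGJ2 against control without 15d-PGJ2 replicate 1, and Cdkn1a for 15d-PGJ2-PC against control with median centring. Of 504 recomputed differences of the 10 genes 4 moved by more than the spread between replicates, those of Cdkn2b and Plk3 from control with a pseudocount of 0.1 (Plk3 2.21 with 15d-PGJ2-PC and 2.93 with 15d-PGJ2). Of 714 list counts by direction 54 moved by over 1.5 times, all of them counts of 0 to 5 genes.

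The replicate numbers showed no clear pairing of the libraries. Deviations from the group means correlated at -0.04 to 0.05 (median 0.03) between libraries of the same number. Between others they correlated at -0.07 to 0.10 (median -0.005). Such low correlations cannot exclude that the libraries were paired. With the replicate block, 5272 genes passed for 15d-PGJ2 against control (5338 without it), 3041 for 15d-PGJ2-PC against control (3147) and 2215 between the compounds (2335), and the calls of the 10 genes did not change. Of the DNA damage checkpoint genes 3 fell for 15d-PGJ2 against control with the block (5 without it), and Cdkn1c did not pass for 15d-PGJ2-PC against control (adjusted p = 0.0646).
Depth limits Cdkn2c, Cdkn2d and the control values of Cdkn2b and Plk3, with about 12 to 44 reads a library.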

Other observations

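Genes next to Cdkn2b on chromosome 4 were taken by position alone. Mtap, which encodes the salvage enzyme methylthioadenosine phosphorylase and whose leftmost base lies 169 kb from that of Cdkn2b, was at 13.1 to 14.3 FPKM with 15d-PGJ2-PC, 16.7 to 17.5 FPKM with 15d-PGJ2 and 12.48 to 13.8 FPKM in controls. It rose with 15d-PGJ2 by 0.37 on the log2 scale (limma adjusted p = 0.000678), was at adjusted p = 0.566 for 15d-PGJ2-PC against control, and was lower with 15d-PGJ2-PC than with 15d-PGJ2 (log2 difference -0.31, adjusted p = 0.00525). The noncoding gene Gm12610, whose span covers Cdkn2b, was listed at no more than 0.18 FPKM in any library, and Dmrta1, on the other side, at no more than 0.07 FPKM.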
